A study of Mus musculus with 24 samples.

Results

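The genes of the mitochondrial ribosome were followed in the *M. gastrocnemius*, a calf muscle, of mice under acute hypoxia (Hypox) or normoxia (Norm). They were chosen by name, as non-control probes whose gene name on the array was Mrpl (large subunit) or Mrps (small subunit) followed by a number and at most 1 letter. This gave 76 genes, 47 Mrpl and 29 Mrps, on 106 of 55681 probes. A probe counted as measured when its Cy5 signal averaged over 2 times the local background across the 24 arrays, which 95 of the 106 probes and 14233 probes in all did. All 76 genes kept at least 1 measured probe, and 50 of them were well above background on all 24 arrays. They were among 9104 genes tested.

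Both groups held 12 fasted male C57BL/6JOlaHsd mice that had arrived at 10 weeks of age. All had eaten a low-fat diet with 10% of energy from fat for 3 weeks, then a high-fat diet with 40% for 6 weeks. Hypox mice breathed 12% oxygen for 6 h before the muscle was taken, and Norm mice breathed 20.9%. RNA of 1 mouse was labelled with Cy5 on each array and set against a Cy3-labelled pool of all samples, so that a level is a log2 ratio of mouse over pool and a difference is Hypox minus Norm on that log2 scale.

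The mitochondrial ribosome translates the few messages of mitochondrial DNA, all of which encode hydrophobic subunits of the respiratory chain and ATP synthase. Its rRNAs are encoded in mitochondrial DNA, but every one of its proteins is made in the cytosol from a nuclear gene and imported. Part of these proteins have counterparts in bacterial ribosomes, while others are found in mitochondria alone. Muscle, with its high oxidative capacity, depends on this ribosome to keep its respiratory chain supplied.

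Each of 6 slides carried 4 arrays, split equally between the groups, and the mean Cy5 signal of an array ranged from 58.3 to 1014 between and within slides. The number of arrays limits the precision. Hypox array 2 stood apart, with an SD of 0.75 over the log2 ratios of the 76 genes, followed by Hypox array 12 with 0.59, against 0.22 to 0.49 on the other 22 arrays. Hypox array 2 was the highest of 24 for 16 of the 76 genes, and 12 of its ratios were over 1, and values that move with it are given below without it. All 7 muscle fibre markers were measured and none passed an unadjusted *P*-value of 0.05. Of the markers of other cell types, 2 of 3 measured endothelial genes passed as higher in Hypox (*Cdh5* by 0.38 and *Cldn5* by 0.30). The other, *Kdr*, went the other way at -0.15 and did not pass, and of 6 endothelial genes listed only these 3 were measured. Of 5 nerve genes, 2 passed as lower (*Prx* and *Pmp22*, with differences of -0.28 and -0.41). The mean of the endothelial markers lay between -0.33 and 0.03 on Norm arrays and between -0.38 and 0.26 on Hypox arrays, and that of the nerve markers between -0.31 and 0.41 and between -0.58 and 0.12. Of 6 adipocyte genes listed 4 were measured, and only *Adipoq* passed, as lower at -0.33. *Sftpc*, the only measured gene of 5 lung genes listed, was higher by 0.81. It was well above background on only 4 Hypox arrays and no Norm array. The red cell and leukocyte markers measured, 3 of 4 and 2 of 6, gave no call. The part of these cell types in the values below was not tested, and in whole muscle fewer cells of a type and less RNA per cell cannot be told apart.

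Most mitochondrial ribosomal protein genes had a slightly higher level in Hypox than in Norm. The difference was over 0 for 38 of 47 Mrpl genes and 24 of 29 Mrps genes, together 62 of 76 (81.6%), against 58.8% of all genes tested. The median difference was 0.13 for Mrpl (quartiles 0.02 and 0.21) and 0.13 for Mrps (quartiles 0.05 and 0.20), beside 0.03 over all genes. These are small changes: the widest, of *Mrpl28*, was 0.47, a fold change of 1.38.

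At the unadjusted *P*-value of 0.05 that the study used as its threshold, 12 of 47 Mrpl and 7 of 29 Mrps genes passed, all of them higher in Hypox and none lower. These 19 genes make up 25% of the members, whereas 7.14% of all genes tested passed as higher, 5.07% as lower and 12.2% in either direction. After Benjamini-Hochberg adjustment over all 9104 genes in limma none of the 76 passed 0.05, with a lowest adjusted *P*-value of 0.092, and 0.341% of all genes did. The plain t-test of the methods also gave 19 unadjusted and 0 adjusted calls. The calls depended on the scaling: 10 members passed with the scanner's processed signals, 8 in the deposited values (6 of them among the 19) and 0 without loess normalisation, and every one of these calls was higher. The shares of all genes that passed as higher in these settings were 3.73%, 3.03% and 0.351%. Just outside the threshold were *Mrpl13* (0.21, *P*-value = 0.0556) and *Mrpl44* (0.28, *P*-value = 0.0574).

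**Figure D1:**
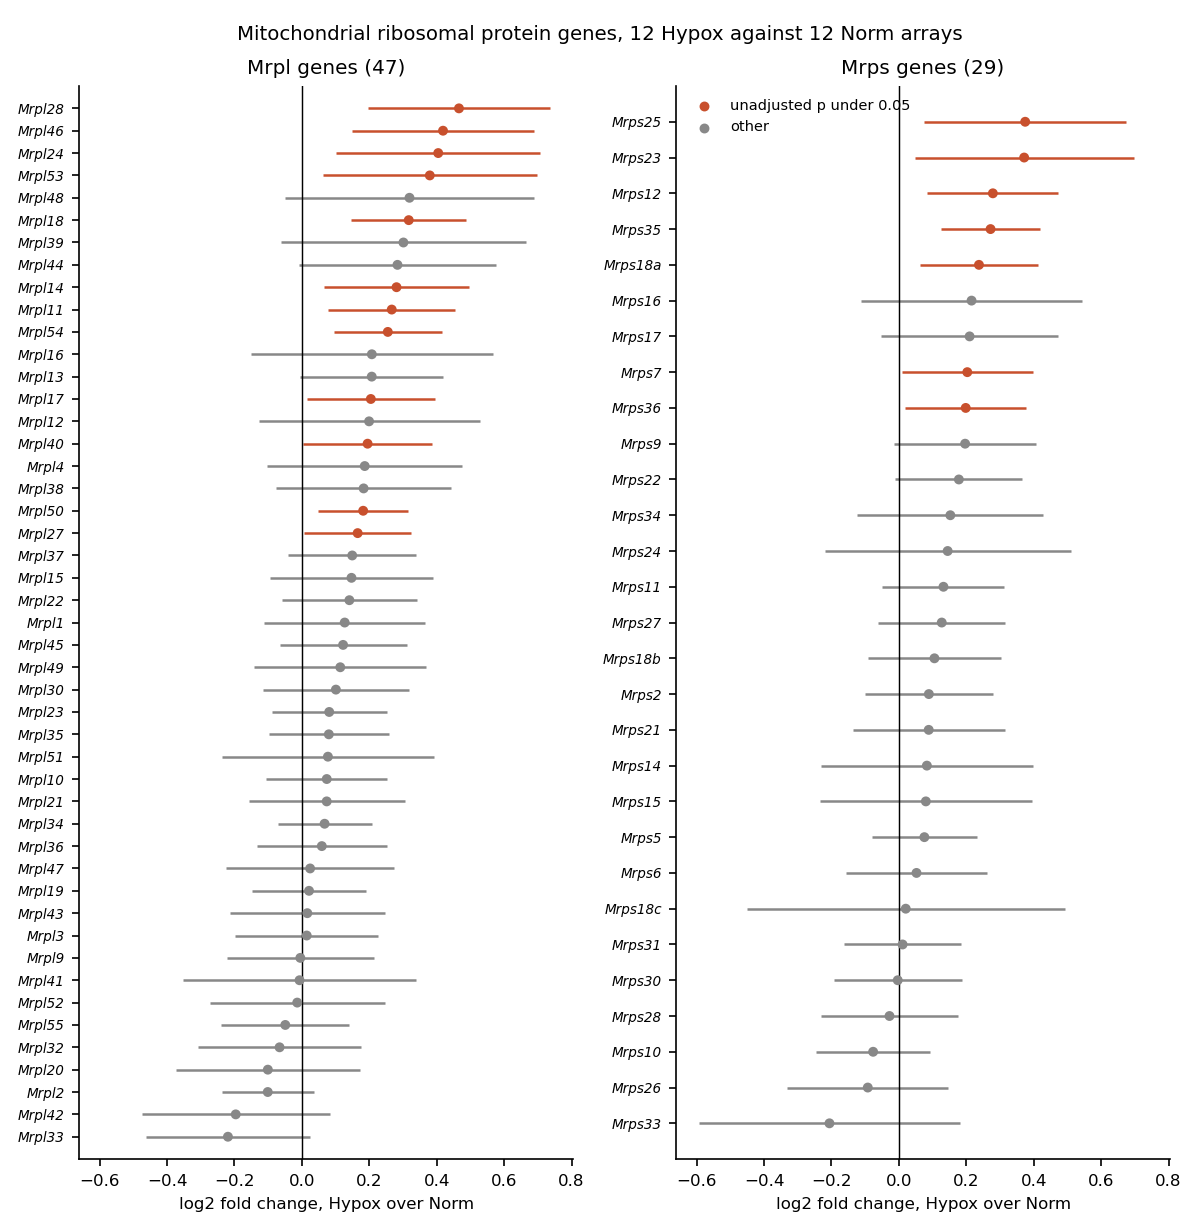
Difference in level, Hypox minus Norm (log2 scale), of each of the 47 Mrpl and 29 Mrps genes, with its 95% confidence interval (n = 12 per group). The 19 genes in red passed an unadjusted *P*-value of 0.05 and all lie above 0, while none of the genes below 0 passed, and the 3 lowest of each subunit turned positive without loess normalisation and in the deposited values, where the median of all genes was itself 0.25 and 0.09.

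Dim and bright members both contributed to the calls. Counted by brightness, 8 of 38 dimmer and 11 of 38 brighter members passed. The median signal over background was 23.5 for the members and 12.4 for the dimmer ones, against 6.40 for all genes. This split therefore does not set the members against genes of like brightness, and the part of brightness in the calls was not tested. The quartiles and the median of Mrpl and Mrps lay above those of all genes (-0.06, 0.03 and 0.11), but the highest member, at 0.47, was well below the highest of all genes, at 0.95. The 75 nuclear-encoded subunits of oxidative phosphorylation (OXPHOS) were spread more widely, from -0.51 to 0.55, with a median of -0.07. Their median signal over background was 379, against 23.5 for the members, and their median SE 0.16, against 0.11. These subunits share the arrays with the ribosomal genes. Neither the difference between the lists nor the part of brightness in it was tested.

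**Figure D2:**
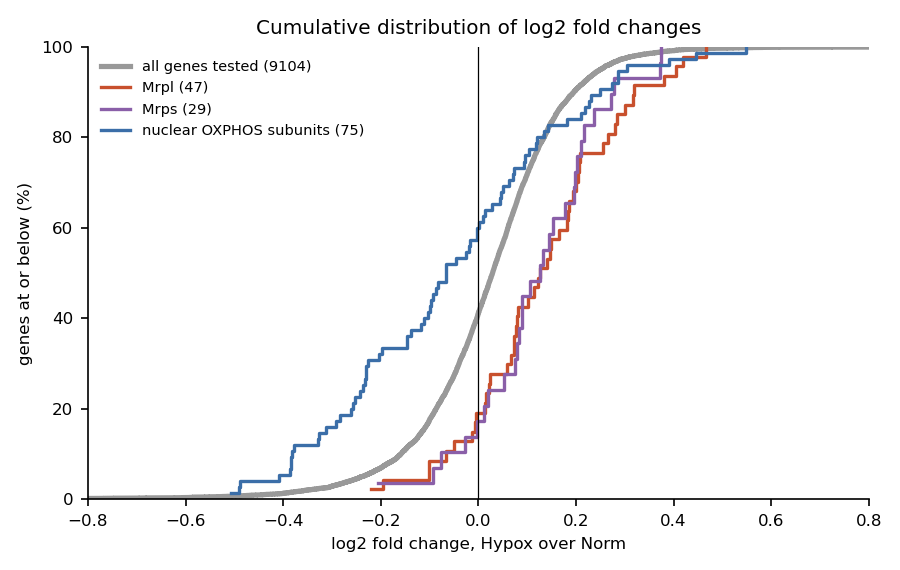
Cumulative share of genes (y axis) at or below a given difference, Hypox minus Norm (x axis, log2 scale), for all 9104 genes tested, the Mrpl genes, the Mrps genes and 75 nuclear OXPHOS subunits. The Mrpl and Mrps medians are both 0.13, that of all genes 0.03 and that of the OXPHOS subunits -0.07.

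Because each slide carried both groups, the comparison could be repeated within slides. The median difference of the Mrpl genes was above 0 on each of the 6 slides, from 0.05 on slide 1 to 0.16 on slide 2, and that of the Mrps genes ran from 0.04 on slide 1 to 0.17 on slide 2. The median over all genes lay between -0.02 and 0.05 on the same slides. With it taken off, the Mrpl shift ran from 0.05 on slide 3 to 0.14 on slide 2 and the Mrps shift from 0.05 on slide 6 to 0.16 on slide 2. The dimmest arrays were those of slide 1, with a mean Cy5 signal of 58.3 to 102, and the brightest those of slide 6, with 645 to 1014. Hypox arrays were also brighter than Norm arrays on each slide, by a log2 Cy5 difference of 0.02 (slide 2) to 0.46 (slide 4). Brightness and group thus went the same way, and the part of brightness in these shifts was not tested. Of the members, 17 (10 Mrpl and 7 Mrps) were higher in Hypox on 6 of 6 slides and none was lower on all 6, beside 4.69% and 3.53% of all genes. Of those 17, 16 were among the 19 that passed, and the other was *Mrps22*.

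**Figure D3:**
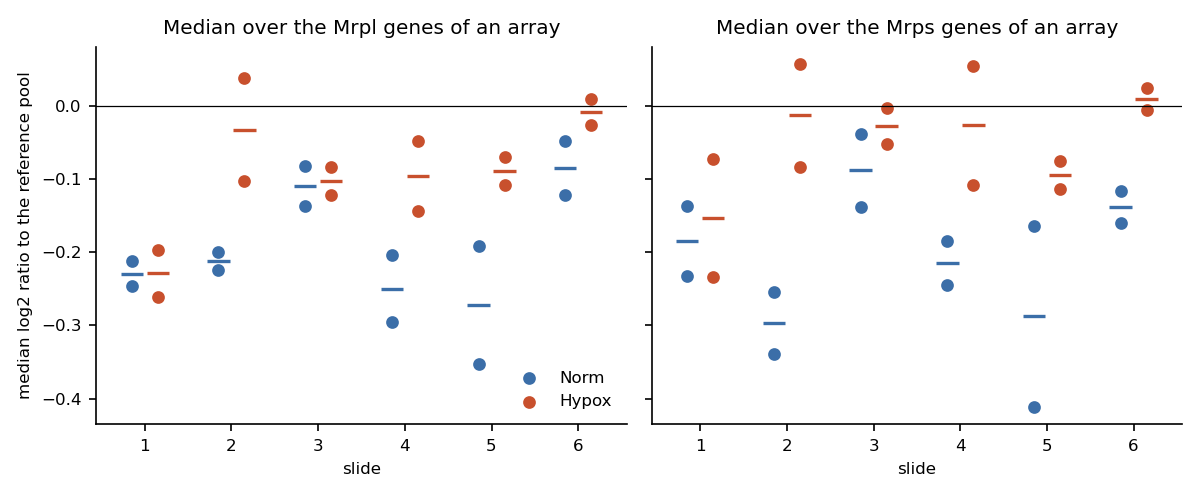
Median log2 ratio over the 47 Mrpl and the 29 Mrps genes on each array (y axis), set out by slide (x axis), with Norm and Hypox in separate colours and a short line at the mean of the 2 arrays of a group on a slide. The Mrpl medians lay between -0.35 and -0.05 on Norm arrays and between -0.26 and 0.04 on Hypox arrays, so the groups overlap.

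With the slide as a block in the fit, 13 Mrpl and 7 Mrps genes passed as higher and none as lower, and 18 of these 20 were among the 19. Over all genes, 8.00% then passed as higher and 6.16% as lower. *Mrps35* also passed after adjustment in that fit (adjusted *P*-value = 0.0474), as did 0.769% of all genes. When each of the 24 arrays was left out in turn, 14 of the 19 passed every time. The 5 that lost the call without at least 1 array were *Mrps36*, *Mrpl17*, *Mrps7*, *Mrpl27* and *Mrpl40*, which passed in 18, 16, 14, 14 and 8 of the 24 fits. Without Hypox array 2 the difference was 0.15 for *Mrps36* (*P*-value = 0.0658), 0.19 for *Mrpl17* (*P*-value = 0.0539), 0.16 for *Mrps7* (*P*-value = 0.0840) and 0.19 for *Mrpl40* (*P*-value = 0.0600), so that 15 of the 19 passed. When each slide was left out as well, 9 still passed every time: *Mrpl18*, *Mrps35*, *Mrpl28*, *Mrpl54*, *Mrpl46*, *Mrps12*, *Mrpl11*, *Mrpl24* and *Mrps25*. No member had groups without overlap. The shares of all genes that passed in every such fit, or whose groups did not overlap, were not worked out. These counts therefore do not set the members against other genes.

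How far the genes moved together from mouse to mouse varied. With the group means removed, the mean correlation over the 24 arrays was 0.059 between 2 Mrpl genes, 0.037 between 2 Mrps genes and 0.066 between an Mrpl and an Mrps gene, beside 0.013 between any 2 genes tested. These arrays share slides, and with the slide means also removed the first 3 values became 0.037, 0.018 and 0.046. The mean was then 0.011 between any 2 genes tested. It was 0.023 between a member and a nuclear OXPHOS subunit and 0.011 between a member and a cytosolic ribosomal protein. With the group means alone removed, these last 2 values were -0.021 and -0.034. With both removed and set against the mean of the other members, a single gene correlated from -0.46 to 0.71 with a median of 0.16, with the highest values in *Mrpl14* (0.71) and *Mrpl13* (0.70). With the group means removed, the slide accounted for a median of 29.5% of the variance of a member, beside 26.6% over all genes tested.

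The proteins were then set out by their place in the ribosome, a grouping made from general knowledge with the values known. Of all genes tested 58.8% were above 0 and 7.14% passed as higher, and of all 76 members 81.6% and 25%. The groups are small, and whether they differ from each other or from the other members was not tested. In the central protuberance, the part of the large subunit that faces the head of the small subunit, 6 of 7 genes were above 0 and 4 passed, with a median of 0.19. *Mrpl18* encodes a protein of this region that in bacteria binds the 5S rRNA. Its log2 ratio had a lowest, median and highest value of -0.38, 0.13 and 0.31 in Norm and of 0.10, 0.37 and 0.73 in Hypox. Thus 8 of 12 Hypox mice lay above every Norm mouse. The difference was 0.32 ± 0.083 (SE, *P*-value = 0.000696, adjusted *P*-value = 0.0922), and it was 0.32 also without Hypox array 2. Its 60-base probe lies at chromosome 17, 13104338 to 13104397 (mm9), and begins with the bases below, shown because this gene had the smallest *P*-value of all 76.
Mrpl18 probe, first 30 bases: gcttcagagcaataatgtgactgaaaactt

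*Mrpl46*, a protein of the central protuberance found in mitochondria alone, ran from -0.34 over -0.14 to 0.07 in Norm and from -0.23 over 0.19 to 1.49 in Hypox. Here 7 Hypox mice lay above every Norm mouse, and the highest value was that of Hypox array 2. The difference was 0.42 ± 0.13 (SE, *P*-value = 0.00352), or 0.31 without that array. *Mrpl40* (0.19, *P*-value = 0.0461) and *Mrpl27* (0.17, *P*-value = 0.0416), whose bacterial counterpart reaches towards the peptidyl transferase centre, passed more narrowly, and *Mrpl27* no longer passed with the slide as a block (*P*-value = 0.0568).

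In the stalk that recruits translation factors, and at its base, all 5 genes were above 0 and 3 passed, with a median of 0.25. *Mrpl54* ran from -0.73 over -0.34 to -0.13 in Norm and from -0.27 over -0.12 to 0.16 in Hypox, with a difference of 0.25 ± 0.079 (SE, *P*-value = 0.00306). All 12 Hypox mice were above the Norm median and 6 were above every Norm mouse. *Mrpl11*, which carries the base of the stalk, differed by 0.27 (*P*-value = 0.00731) and *Mrpl53* by 0.38 (*P*-value = 0.0210), the latter with 1 Norm mouse as low as -1.37. *Mrpl12*, the protein that forms the mobile part of the stalk, differed by 0.20 with an interval from -0.13 to 0.53 (*P*-value = 0.223), and its Hypox values reached from -0.57 to 1.45. Without Hypox array 12 the difference was 0.05.

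Around the tunnel through which the new chain leaves, 6 of 6 genes were above 0 and 2 passed. *Mrpl24* ran from -0.65 over -0.14 to 0.23 in Norm and from -0.20 over 0.22 to 1.78 in Hypox. Its difference of 0.40 ± 0.15 (SE, *P*-value = 0.0107) rested in part on Hypox array 2 and was 0.27 without it (*P*-value = 0.0042). *Mrpl17* passed with 0.20 (*P*-value = 0.0351). *Mrpl45*, which holds the ribosome to the inner membrane, differed by 0.12 with an interval from -0.07 to 0.31 (*P*-value = 0.195).

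Of the other genes named Mrpl, 21 of 29 were above 0 and 3 passed. *Mrpl28* had the widest difference of all members. It ran from -0.68 over -0.29 to 0.07 in Norm and from -0.27 over 0.15 to 1.26 in Hypox. All 12 Hypox mice were above the Norm median, with 7 above every Norm mouse. The difference was 0.47 ± 0.13 (SE, *P*-value = 0.0015), or 0.37 without Hypox array 2 (*P*-value = 0.0012). *Mrpl14*, which also binds the factor that keeps idle subunits apart, differed by 0.28 (*P*-value = 0.0119), and *Mrpl50* by 0.18 (*P*-value = 0.00928). *Mrpl44*, a protein with a ribonuclease III fold, differed by 0.28 (*P*-value = 0.0574), but only by 0.18 without Hypox array 2 (*P*-value = 0.119).

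**Figure D4:**
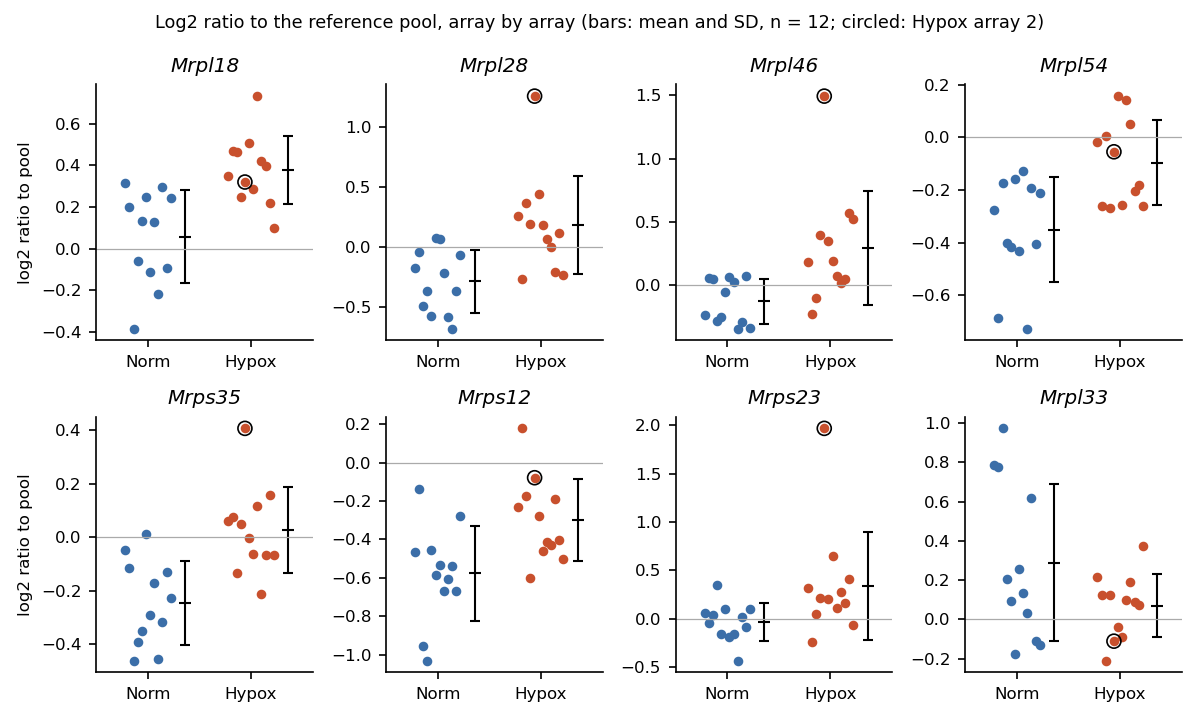
Log2 ratio of mouse over reference pool (y axis) on each of the 12 Norm and 12 Hypox arrays for *Mrpl18*, *Mrpl28*, *Mrpl46*, *Mrpl54*, *Mrps35*, *Mrps12*, *Mrps23* and *Mrpl33*, with mean and SD of each group, points ordered by slide and Hypox array 2 circled. In *Mrpl28*, *Mrpl46* and *Mrps23* the circled array is the highest, at 1.26, 1.49 and 1.97, while in *Mrpl33* the Norm values reach 0.97 and the Hypox values 0.37, a direction that turned, also against the median of all genes, without loess normalisation and in the deposited values.

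In the small subunit the clearest gene was *Mrps35*, a protein found in mitochondria alone. It ran from -0.46 over -0.26 to 0.01 in Norm and from -0.21 over 0.02 to 0.41 in Hypox. All 12 Hypox mice were above the Norm median and 6 were above every Norm mouse. The difference was 0.27 ± 0.072 (SE, *P*-value = 0.000721, adjusted *P*-value = 0.0925), with 0.24 when Hypox array 2 was left out. The listed position of its probe runs from 147009999 to 147019119 on chromosome 6 (mm9), far longer than the 60 bases of the probe.
Mrps35 probe, first 30 bases: gtaccacgaatcttggaaaactgaagactg

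*Mrps12*, the counterpart of the bacterial protein that governs decoding accuracy, ran from -1.03 over -0.56 to -0.14 in Norm and from -0.60 over -0.34 to 0.18 in Hypox. The groups overlapped widely, with 2 Hypox mice above every Norm mouse, and the difference was 0.28 ± 0.095 (SE, *P*-value = 0.00645). *Mrps25* differed by 0.37 (*P*-value = 0.0159) and *Mrps23* by 0.37 (*P*-value = 0.0263), both proteins without a bacterial counterpart. *Mrps23* reached 1.97 on Hypox array 2 and the difference fell to 0.22 without it (*P*-value = 0.0187), and *Mrps25* reached 1.44 and went to 0.26. Among 5 proteins listed for the head of the small subunit, 4 were above 0 and only *Mrps7* passed (0.20, *P*-value = 0.0410). That list does not cover every protein of the head and leaves out *Mrps35*.

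*Mrps36* passed with 0.20 (*P*-value = 0.0321), but its protein is known as a component of the 2-oxoglutarate dehydrogenase complex and carries the ribosomal name for historical reasons. The names also mislead for *Mrps18a* and *Mrps30*, whose proteins sit in the large subunit. *Mrps18a* passed (0.24, *P*-value = 0.00952). Its paralogs did not, with 0.11 for *Mrps18b* (interval from -0.09 to 0.30) and 0.02 for *Mrps18c* (-0.45 to 0.49), the most variable member with a Norm SD of 0.68. Whether the 3 paralogs differ from each other was not tested. *Mrps30* and the related *Mrpl37* gave 0.00 (-0.19 to 0.19) and 0.15 (-0.04 to 0.34), and neither passed. Counted by structure and not by name, 13 of 49 large-subunit and 5 of 26 small-subunit genes passed.

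By origin, 9 of 46 proteins with a bacterial counterpart passed, with 38 above 0 and a median of 0.09. Of 29 proteins counted as particular to mitochondria 9 passed, with 23 above 0 and a median of 0.15. These include *Mrps18a*, which passed, and *Mrps18b*, although their paralog *Mrps18c* was counted with a bacterial counterpart. The difference between these classes was not tested.

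Of the 14 genes below 0, none passed. The lowest was *Mrpl33*, a small protein of the large subunit, which ran from -0.17 over 0.17 to 0.97 in Norm and from -0.21 over 0.09 to 0.37 in Hypox. Only 3 Hypox mice were above the Norm median, and the difference was -0.22 (interval from -0.46 to 0.02, *P*-value = 0.0752) and below 0 on 5 of 6 slides, but it turned to 0.37 without loess normalisation and to 0.20 in the deposited values, where the median of all genes was itself 0.25 and 0.09. It passed the threshold, as lower, in the fits that left out Norm array 6, 10 or 12 (-0.26 in each) or slide 6 (-0.33). The 3 lowest of each subunit also included *Mrpl42* with -0.20 and *Mrpl2*, a protein close to the catalytic centre, with -0.10, and were *Mrps33* with -0.21, *Mrps26* with -0.09 and *Mrps10* with -0.08 in the small subunit, and all 5 turned positive under those same scalings. Set against the median of all genes, however, *Mrpl42*, *Mrps33* and *Mrps10* stayed below it under both (by -0.10, -0.07 and -0.03 without loess normalisation), whereas *Mrpl33*, *Mrpl2* and *Mrps26* lay above it. Without Hypox array 2 *Mrps26* was -0.04 and *Mrps10* -0.05, and without Norm array 3 *Mrpl42* was -0.12 and *Mrps33* -0.09. *Mrps33* had 1 Norm mouse at 1.23 and an interval from -0.59 to 0.18.

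Several genes were measured by more than 1 probe, which can let the value of a gene be read at different places of its transcript. This held for 18 members, 17 with 2 probes and *Mrps18b* with 3. The 2 probes of *Mrpl23*, and 2 of the 3 of *Mrps18b*, largely overlap in sequence and are not separate readings, although they are counted below. All probes lay above 0 in 11 of them, all below 0 in 1 (*Mrps33*), and the signs were mixed in 6. At least 1 probe passed in 10 of the 18, and of the 19 further probes, which do not stand for the gene in the counts above, 6 passed. All of these calls were higher, and 7.48% of the 14233 measured probes passed as higher in that fit. Every probe passed in 2 genes, *Mrps23* and *Mrpl40*. For *Mrps23* the bright probe gave 0.37 and the dim one, in the first part of the transcript, gave 0.19 (*P*-value = 0.0316). The *Mrpl40* probes gave 0.19 and 0.28 but share 52 of their 60 bases, being set 8 bases apart, so they are not separate readings. The shared bases within the stretches shown are in capitals.
Mrpl40, from transcript base 795: AAGTCTACTTTCCACAGACAAGtgagtcat
Mrpl40, from transcript base 787: gagatctaAAGTCTACTTTCCACAGACAAG

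In *Mrpl43* the brighter probe, from base 681 of its transcript, gave 0.02 (*P*-value = 0.887), while the probe from base 541 gave 0.36 ± 0.14 (SE, *P*-value = 0.0168). *Mrpl22*, *Mrpl49* and *Mrps17* likewise passed only with the dimmer probe, with 0.27, 0.25 and 0.26 against 0.14, 0.11 and 0.21 for the brighter one. The opposite was seen in *Mrpl27* and *Mrps36*, which passed with the probe that stands for the gene (0.17 and 0.20) and had the other probe at -0.02 and -0.05. *Mrpl50* gave 0.18 and, with a dim second probe, 0.05. These *P*-values come from a limma fit over all measured probes. The first 30 bases of the probes that disagree are given below, the one that stands for the gene first.
Mrpl43, base 681: gaccttgtgaataccctaattctgattcaa
Mrpl43, base 541: ttggaccgtgagagggataggattggttcc
Mrpl27, base 360: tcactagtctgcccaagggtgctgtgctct
Mrpl27, base 648: ccatctataatctcttcttgtgtgtctgaa
Mrps36, base 336: atacagaaggaaacctatgtctcaagagga
Mrps36, base 635: taacttgctcttgattatgaaatgttccca

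**Figure D5:**
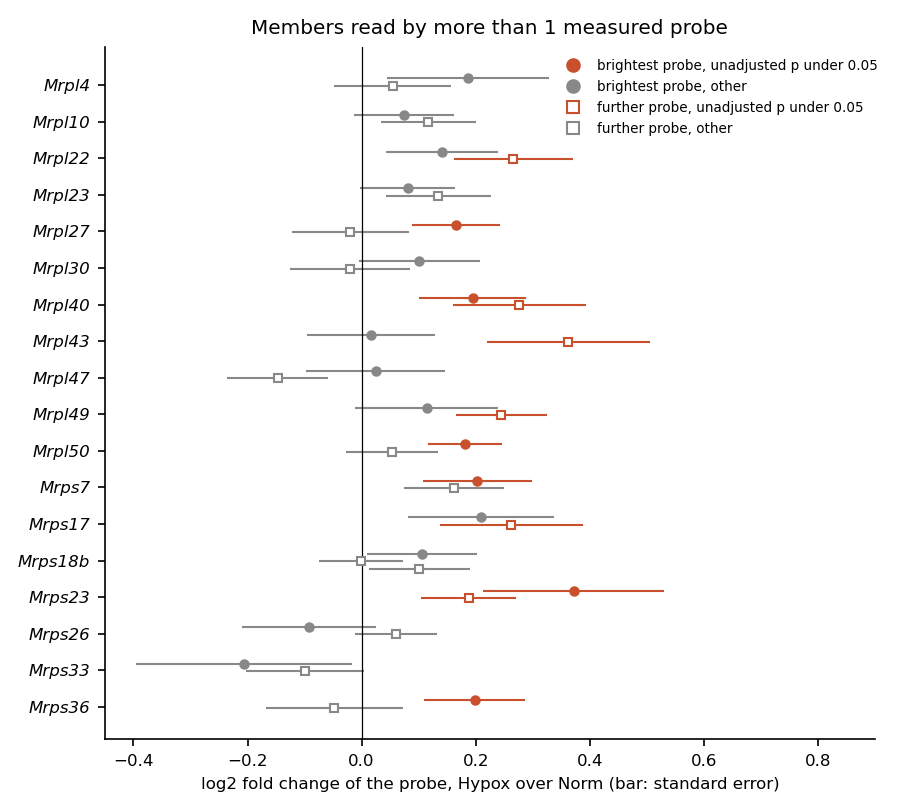
Difference, Hypox minus Norm (log2 scale, with SE), of each measured probe of the 18 members that have more than 1. In 11 genes all probes lie above 0, and the widest gap is seen in *Mrpl43*, with 0.02 and 0.36.

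Many of these genes have their annotated start close to that of a neighbour read in the opposite direction. Whether such pairs share a promoter was not tested. In RefSeq (GRCm38.p6), 67 members had a promoter entry of 250 bases before and 50 after the start. Of these, 23 (34.3%) had the start of another gene on the other strand within 500 bases, against 18.4% of the genes tested with an entry and 11.5% of all entries. By subunit this held for 16 of 41 Mrpl and 7 of 26 Mrps genes. Among the members that passed it was 8 of 17 (47.1%), and 15 of 50 (30%) among the others.

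The neighbours were set beside the members. Of 15 tested neighbours that are not members, 10 lay above 0 and 1 passed, which at these numbers is near the 58.8% and 7.14% of all genes. That one was *Tcp1*, a subunit of the cytosolic chaperonin, at 0.29 (*P*-value = 0.0289), whose start lies 238 bases from that of *Mrpl18*. *Mrpl46* and *Mrps11* are both members, with starts 42 bases apart, and differed by 0.42 and by 0.13 (*P*-value = 0.145). *Sars2*, the mitochondrial seryl-tRNA synthetase beside *Mrps12*, gave 0.13 (*P*-value = 0.136). *Hira*, *Tmem63b* and *Gga3*, beside *Mrpl40*, *Mrpl14* and *Mrps7*, gave 0.20, 0.07 and -0.09, and none of these passed. Differences between partners were not tested.

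The stretches between the starts of 6 pairs are shown, those in which the member named first passed and its neighbour was tested. Other pairs with both genes tested are not shown. Each is printed 5′ to 3′ on the strand of the member named first, without the start bases, and capitals mark a match to one of the 6 motifs named below, on either strand.
Mrpl46 and Mrps11, chr7:78783090-78783130, minus strand: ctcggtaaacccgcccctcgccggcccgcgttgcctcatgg
Mrpl18 and Tcp1, chr17:12916092-12916328, minus strand: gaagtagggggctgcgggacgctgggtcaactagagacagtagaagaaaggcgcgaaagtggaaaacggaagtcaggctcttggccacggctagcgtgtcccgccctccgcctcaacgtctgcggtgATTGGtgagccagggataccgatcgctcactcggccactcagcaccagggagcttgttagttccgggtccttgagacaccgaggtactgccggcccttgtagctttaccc
Mrps12 and Sars2, chr7:28741822-28741967, minus strand: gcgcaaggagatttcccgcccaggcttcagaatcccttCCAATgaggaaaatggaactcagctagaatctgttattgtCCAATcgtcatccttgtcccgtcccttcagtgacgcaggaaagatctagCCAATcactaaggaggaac
Mrpl14 and Tmem63b, chr17:45686219-45686348, plus strand: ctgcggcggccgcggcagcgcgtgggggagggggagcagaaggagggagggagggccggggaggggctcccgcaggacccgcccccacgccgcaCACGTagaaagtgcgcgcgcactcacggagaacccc
Mrpl40 and Hira, chr16:18876638-18876749, minus strand: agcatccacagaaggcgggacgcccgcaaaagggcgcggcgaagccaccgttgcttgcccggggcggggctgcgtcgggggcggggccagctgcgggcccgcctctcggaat
Mrps7 and Gga3, chr11:115603917-115604139, plus strand: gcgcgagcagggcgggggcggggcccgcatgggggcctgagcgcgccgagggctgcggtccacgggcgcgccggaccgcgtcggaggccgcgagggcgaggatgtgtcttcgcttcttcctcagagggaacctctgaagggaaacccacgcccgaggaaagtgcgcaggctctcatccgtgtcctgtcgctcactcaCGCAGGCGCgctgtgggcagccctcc

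The stretch beside *Mrps12* held CCAAT 3 times, that beside *Mrpl18* held it once on the other strand, that beside *Mrps7* held an NRF1 match and that beside *Mrpl14* the core of a hypoxia response element. The stretches beside *Mrpl46* and *Mrpl40* held none of the 6.

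Over the whole entries, searched on both strands, the NRF1 letters CGCANGCGC occurred in 17 of 67 members (25.4%), against 15.7% of the genes tested and 7.12% of all entries. The letters CCGGAAG, bound by GABP and other ETS factors, occurred in 24 members (35.8%), against 21% and 9.93%, and AAGATGGCG, bound by YY1, in 8 (11.9%), against 3.91% and 1.64%. NRF1, GABP and YY1 are known regulators of nuclear genes for mitochondrial proteins. The hypoxia response core ACGTG occurred in 16 members (23.9%), against 29.7% of the genes tested and 21.8% of all entries, TATAAA in 5 (7.46%), against 9.46% and 15.7%, and CCAAT in 27 (40.3%), against 42.7% and 41.1%. The member entries had a median GC content of 58.3% and a median of 21 CpG, against 60.7% and 20 for the genes tested. Among the 17 members that passed and had an entry, 3 held the NRF1 letters, 7 those of GABP, 5 ACGTG and 9 CCAAT, against 14, 17, 11 and 18 of the other 50. A match is a description of letters and not a measured site.

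Genes that work beside these proteins were read from lists in the same fit, where 58.8% of all genes were above 0 and 7.14% passed as higher. Of 6 further ribosomal proteins with other names, all were above 0 and *Mrpl58*, on the array as *Ict1*, a peptidyl-tRNA hydrolase built into the central protuberance, passed (0.25, *P*-value = 0.0086), followed by *Gadd45gip1* (0.21, *P*-value = 0.230). *Mrpl57*, found on the array as *Mrp63* and added to that list after its values were seen, gave 0.08 (*P*-value = 0.442). Of 23 genes for ribosome assembly and rRNA modification, 12 (52.2%) were above 0 and 2 (8.70%) passed, both higher, with a median of 0.01, which is near the shares over all genes. They were *Trub2*, a pseudouridine synthase (0.35, adjusted *P*-value = 0.0585), and *Rcc1l* (0.22, *P*-value = 0.0099).

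Of 14 mitochondrial translation factors, 9 were above 0 with a median of 0.06, and the initiation factors *Mtif3* (0.32, *P*-value = 0.0138) and *Mtif2* (-0.21, *P*-value = 0.0143) passed in opposite directions. Of 13 mitochondrial aminoacyl-tRNA synthetases, which charge the tRNAs, 10 were above 0 with a median of 0.13, and 1, *Pars2*, passed (0.13, *P*-value = 0.0321), with *Tars2* next (0.21, *P*-value = 0.0916). The products of the mitochondrial ribosome join nuclear-encoded subunits, of which 75 were tested. Of these 30 were above 0, 4 passed as higher and 9 as lower (4 and 18 with the slide as a block), among them *Ndufb6* (0.45, *P*-value = 0.0024) and *Atp5j* (-0.39, *P*-value = 0.0040). The cytosolic ribosomal proteins, which build the ribosome that translates the members themselves, had 37 of 83 above 0, 2 calls higher and 4 lower (2 and 13 with the slide as a block), and a median of -0.05. The smallest *P*-values there were those of *Rpl30* (-0.34, *P*-value = 0.00653) and *Rpl32l* (0.36, *P*-value = 0.00898). Of all genes tested, 7.14% passed as higher and 5.07% as lower, and 8.00% and 6.16% with the slide as a block. The median signal over background was 379 for the OXPHOS subunits and 232 for the cytosolic ribosomal proteins, against 23.5 for the members. The part of brightness in these lists was not tested.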

How the data were processed

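Total RNA of the *M. gastrocnemius* of 24 mice was hybridised to 2-colour Agilent arrays, and per the labels scanner intensities were read with Agilent Feature Extraction 10.7.3.1. The deposited scanner files hold Cy5 and Cy3 intensity per spot, local background and the authors' outlier and saturation flags, with probe positions on mm9. The authors also deposited a table of log2 values for 21335 spots. Its columns share a median of 6.58 and follow log2 Cy5 (correlation 0.967 to 0.999), but its scaling is not given in the sources used here.

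The background was corrected here by normexp (offset 50) on mean and background intensity, ratios were normalised within each array by loess, and flagged readings (7260) were left out. Spots of a probe were averaged, and the probe with the highest average intensity stood for its gene. Probes were named through accession (27235), symbol (3581) or synonym (565), and 24300 had no match. Of the probes with a gene, 11217 were measured. A probe missing on more than 4 arrays of 24 was left out.

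Hypox (n = 12) was compared with Norm (n = 12) in limma 3.58.1 (R 4.3.3), with Benjamini-Hochberg adjustment over 9104 genes, and the threshold was 0.05. A level is a log2 ratio, and levels of different probes were not compared. The scripts were tested on simulated data. One gene of the marker lists is not reported here. The labels give 1 mouse per array. Genes and lists were chosen with earlier results of these data known. Named were the members past the threshold, the 3 lowest of each subunit, members with several probes, paralogs and proteins of a known single role, and the 2 genes with the smallest *P*-value of each other list. Promoter entries and motifs came from RefSeq (GRCm38.p6), matched by symbol with Python 3.11.15, and figures were drawn with matplotlib 3.10.9. The alternatives changed background correction, loess, channel, filter, probe rule, block, weights and the arrays or slides included.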

Additional observations from a re-analysis of the deposited data

How the results depend on the processing

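Over all alternatives the medians of both subunits stayed above 0. Without loess normalisation they were 0.454 (Mrpl) and 0.426 (Mrps), with 0 calls in each and a median over all genes of 0.25, and in the deposited values 0.347 and 0.276, with 6 and 2 calls and 0.09 over all genes. The processed signals gave 7 and 3 calls. After adjustment, array weights gave 4 Mrpl and 2 Mrps calls (279 of 9104 genes, against 31 otherwise) and the slide block 1 Mrps call. With single arrays left out, Mrpl calls ran from 9 to 14 and Mrps calls from 5 to 9, and the medians from 0.111 to 0.152 and from 0.099 to 0.149. In these fits 6.23% to 8.75% of all genes passed as higher. Mrps calls were 11 without slide 1 and 4 without slide 2 or slide 4. Without slides 1, 2 and 4 in turn, 8.79%, 6.13% and 5.02% of all genes passed as higher. Leaving out slides, and Hypox arrays 2 and 12 together, which gave 18 calls with 14 of the 19 among them, was chosen after seeing the data. Without Hypox arrays 2 and 12, 8.58% of all genes passed as higher.

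Replicate numbers do not pair the mice: same-numbered arrays correlated from -0.20 to 0.52, 3 of 12 pairs over 0.1, and 3 of 24 arrays correlated best with their own number. With the replicate number as a block, 13 Mrpl and 5 Mrps genes passed, 16 of these 18 among the 19, and none after adjustment. In that fit 7.58% of all genes passed as higher.

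The members below turned their sign, and none of these values passed. Without loess and in the deposited values the values were 0.324 and 0.139 for *Mrpl2*, 0.372 and 0.197 for *Mrpl33*, 0.152 and 0.0098 for *Mrpl42*, 0.225 and 0.083 for *Mrps10*, 0.362 and 0.207 for *Mrps26*, 0.313 and 0.150 for *Mrps30* and 0.183 and 0.0056 for *Mrps33*. Processed signals gave -0.060 for *Mrpl43*, -0.015 for *Mrpl49* and -0.067 for *Mrps18c*, and the Cy5 channel alone -0.0056 for *Mrpl4* and -0.028 for *Mrpl43*. Array weights gave -0.053 for *Mrpl43*, 0.018 for *Mrps10*, 0.0068 for *Mrps26* and 0.091 for *Mrps30*, an offset of 16 gave 0.0028 for *Mrps30*, and the mean of the probes -0.061 for *Mrpl47*. Without slide 1 *Mrps30* was 0.0026. Without slide 2 *Mrpl10* was -0.010 and *Mrpl43* -0.018. Without slide 3 *Mrpl43* was -0.024, *Mrps18c* -0.072 and *Mrps30* 0.061. Without slide 4 *Mrps18c* was -0.049. Without slide 6 *Mrpl47* was -0.053, *Mrps18c* -0.095 and *Mrps30* 0.034. Without Hypox arrays 2 and 12 *Mrpl43* was -0.066, *Mrps26* 0.044 and *Mrps30* 0.082. With single arrays left out, *Mrpl43* ran from -0.051 to 0.055, *Mrpl47* from -0.022 to 0.083, *Mrps18c* from -0.085 to 0.144 and *Mrps30* from -0.038 to 0.057. The cause of these changes was not tested.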
